A study of Mus musculus with 12 samples.

Results

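The genes described here are 38 genes of glycolysis and the hypoxia response: glucose and lactate transporters, the enzymes of glycolysis, kinases that set the fate of pyruvate, and the hypoxia-inducible factor Hif1a with genes known to respond to it. They were chosen by name, and every probe set whose only gene symbol in the platform annotation was among them was taken. This gave 75 of the 45101 probe sets on the array, for 35 of the 38 genes. Eno1, Gpi1 and Bnip3l had no probe set of their own and were not analysed here. For Gapdh the only such probe sets were array controls, which are not among the 12280 genes tested, so 34 genes were in the fit and Gapdh was added in a separate fit.

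Total RNA of mouse embryonic stem cells undergoing neuronal differentiation was measured on 12 Affymetrix arrays. HM1, a male mouse embryonic stem cell line without functional Hprt, was set against CAG150, a line that carries expanded CAG repeats per the series title, which from general knowledge of such lines sit in the Huntington's disease gene Htt. Each line had 3 arrays at day 4 and 3 at day 6. No drug or other agent is named for any group. Each genotype is represented by 1 line, and the labels do not say whether a group's samples came from separate cultures, so a p-value here reflects only how far these particular samples vary, which may be technical. Day and replicate number were taken from the titles, since the sample descriptions give 4 days for HM1 at day 6 and repeat a replicate number. With 3 arrays a group, precision is limited by their number.

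Glycolysis turns glucose into pyruvate, which cells either oxidise in mitochondria or reduce to lactate. Embryonic stem cells are known to rely strongly on glycolysis and to lower it as they differentiate into neurons, which lean on oxidative metabolism. When oxygen is scarce, prolyl hydroxylases of the Egln family stop marking Hif1a protein for destruction, and the stabilised factor raises transcription of glucose transporters, nearly every glycolytic enzyme and genes such as Vegfa, so the same genes serve both programmes. Hif1a is controlled mostly at the protein level, which arrays do not measure.

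Of the genes that passed the test, most were lower in CAG150 than in HM1, and most fell between day 4 and day 6 in both lines. Values below are array intensities, on a linear scale, of the brightest probe set of each gene. Differences are of log2(intensity + 16) ± SE, folds are taken from them and understate the change of dim genes, and the threshold for a gene to pass was 0.05 on the adjusted p of limma over the 12280 genes. At day 4, 15 of the 34 genes in the fit were lower in CAG150 and 1 was higher, where 7.92% of all genes tested were lower and 7.87% higher (15.8% in all). At day 6, 13 were lower and 4 higher, against a background of 11.2% lower and 10.1% higher (21.4% in all). From day 4 to day 6, 17 genes fell and 1 rose in HM1, and 17 fell and 4 rose in CAG150, where 18.5% of all genes fell and 20.4% rose in HM1 (38.9% in all) and 21.9% fell and 22.5% rose in CAG150 (44.4% in all). The shares of the 34 genes that rose were thus below the background in both lines. The median log2 difference over the 34 genes was -0.36 between lines at day 4, -0.25 between lines at day 6, -0.33 between days in HM1 and -0.31 between days in CAG150. Over all genes tested these medians were 0.005, -0.002, -0.004 and 0.

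The groups compared were free of overlap in more genes than passed the test. At day 4 all CAG150 arrays were below all HM1 arrays for 22 of the 34 genes and above for 2, where 17.1% and 17.3% of all genes did so (34.4% in all). At day 6 this held for 15 below and 5 above (19.8% and 18.8% of all genes, 38.6% in all). Between days it held for 19 lower and 3 higher in HM1 (24.3% and 24.8%, 49.1% in all) and for 17 lower and 6 higher in CAG150 (27.6% and 27.4%, 55% in all).

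Some of these counts changed when single arrays were left out. The 17 genes that passed between lines at day 6 became 10 without HM1 day 6 replicate 3, 11 without CAG150 day 6 replicate 1 and 10 without CAG150 day 6 replicate 2. Over all genes tested, 2624 passed in that comparison, and 2011, 2037 and 2158 in the same fits. With each array centred on its median, 1 gene was higher and 13 lower at day 6, and with quantile normalization 2 were higher and 13 lower. Over all genes tested, 2428 and 2683 passed in these fits. Centring moved the median of all genes between days in HM1 to -0.11, and that of the 34 genes to -0.43. Samples here are bulk cultures, in which fewer cells of a type and less RNA per cell cannot be told apart.

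**Figure D1:**
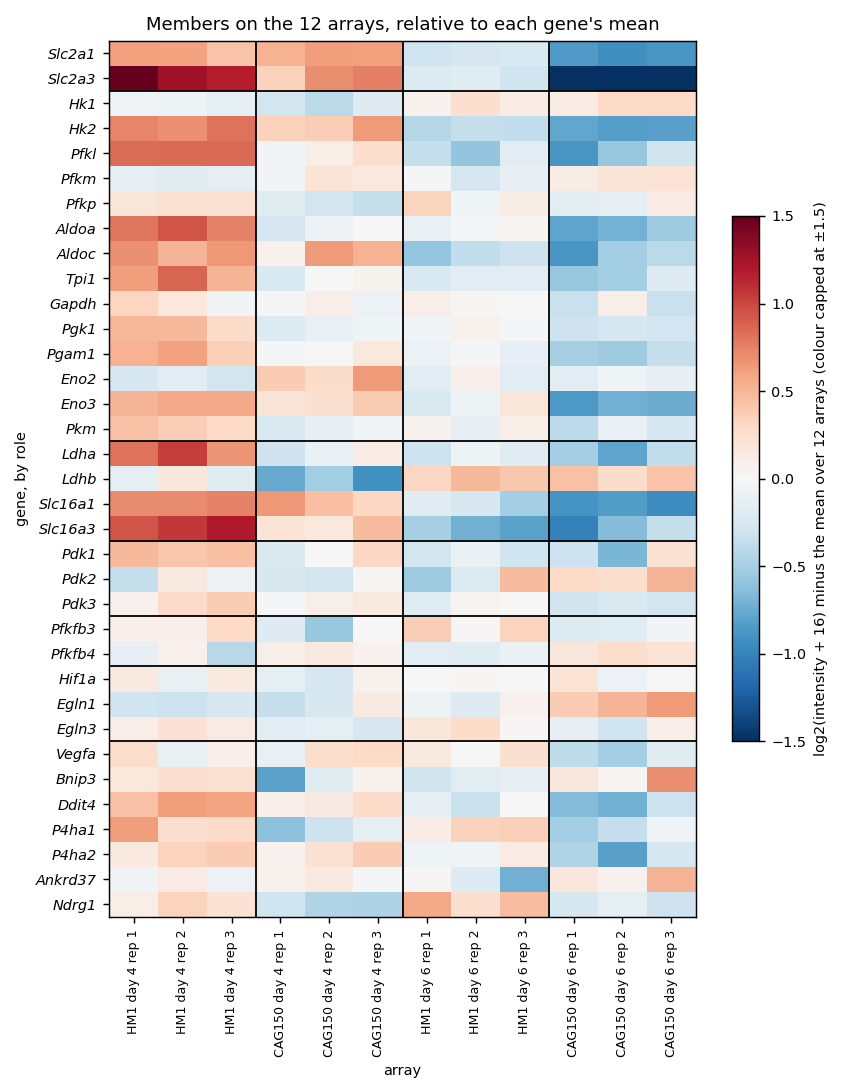
Colour gives log2(intensity + 16) of 35 genes (rows, by role) on 12 arrays (columns, by line and day) after subtraction of each gene's mean over the arrays. The 3 arrays of HM1 at day 4 are red for most genes and the 3 of CAG150 at day 6 are blue, with CAG150 at day 4 and HM1 at day 6 between them, while Ldhb, Egln1 and Hk1 run the other way between days.

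The groups also stood in this order on each array. Over the 34 genes, the median of the value relative to each gene's mean was 0.30 to 0.35 on the arrays of HM1 at day 4, -0.13 to 0.13 in CAG150 at day 4, -0.12 to -0.01 in HM1 at day 6 and -0.35 to -0.22 in CAG150 at day 6. CAG150 at day 4 and HM1 at day 6 overlapped, and the other groups did not.

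Of the glucose transporters, Slc2a3 was lower in CAG150 at both days and Slc2a1 at day 6. Slc2a3 encodes the high-affinity glucose transporter GLUT3. Its intensities were 7365, 6294 and 5924 in HM1 and 3315, 4227 and 4419 in CAG150 at day 4, and 2254, 2293 and 2114 in HM1 and 838.5, 745 and 809 in CAG150 at day 6. No group overlapped another, and CAG150 at day 6 was the lowest. Slc2a3 was lower in CAG150 by a log2 difference of -0.71 ± 0.12 at day 4 (adjusted p = 0.0013) and of -1.46 ± 0.12 at day 6 (2.75-fold, adjusted p = 3e-06). It fell from day 4 to day 6 by 2.92-fold in HM1 (-1.54 ± 0.12, adjusted p = 7.5e-07) and by 4.89-fold in CAG150 (-2.29 ± 0.12, adjusted p = 1.8e-08).

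Slc2a1 encodes GLUT1, the transporter of basal glucose uptake, and behaved differently at day 4. Its intensities were 6133, 6071 and 5375 in HM1 and 5728, 6178 and 6145 in CAG150 at day 4, with overlapping groups (0.04 ± 0.08, adjusted p = 0.78). At day 6 they were 3244, 3356 and 3409 in HM1 and 2205, 2102 and 2168 in CAG150, with every CAG150 array below every HM1 array (-0.62 ± 0.08, 1.54-fold lower, adjusted p = 0.00013). Both lines had less Slc2a1 at day 6, by 1.75-fold in HM1 (-0.81 ± 0.08, adjusted p = 7.1e-06) and 2.77-fold in CAG150 (-1.47 ± 0.08, adjusted p = 2.8e-08). Its dimmer probe sets fell between days too, by -1.09 and -1.23 in HM1 and by -1.71 and -1.71 in CAG150.

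Hexokinases commit glucose to the cell by phosphorylating it, and their isoforms moved apart. Hk2, the inducible form, had intensities of 1007, 974 and 1067 in HM1 and 765, 783 and 941.5 in CAG150 at day 4. At day 6 it was 443, 464 and 462 in HM1 and 344, 332 and 336 in CAG150, so that it was lower in CAG150 on all arrays of a day. The difference between lines was -0.29 ± 0.09 at day 4 (adjusted p = 0.042) and -0.42 ± 0.09 at day 6 (adjusted p = 0.0051). The day 4 call was lost without any 1 of 11 arrays (adjusted p up to 0.15), all but CAG150 day 4 replicate 3, and the day 6 call was kept in all of these fits. Without a filter on dim signals, and when only the arrays compared were fitted, the day 4 call was lost too. Between days Hk2 fell 2.19-fold in HM1 (-1.13 ± 0.09, adjusted p = 1e-06) and 2.39-fold in CAG150 (-1.25 ± 0.09, adjusted p = 2.9e-07).

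Hk1, the widespread form that predominates in brain, rose between days in CAG150. It was 131, 118 and 140 at day 4 and 179, 204 and 202 at day 6 (0.53 ± 0.09, 1.45-fold, adjusted p = 0.00036). In HM1 it was 155, 153 and 146 at day 4 and 171, 196 and 176 at day 6, which did not pass (0.23 ± 0.09, adjusted p = 0.056). With the mean of its probe sets or a 60th percentile filter it passed as a rise in HM1 too. Hk1 did not pass in the interaction, the day difference in CAG150 minus that in HM1 (0.30 ± 0.13, adjusted p = 0.24). The lines did not differ past the threshold, with -0.20 ± 0.09 at day 4 (adjusted p = 0.15) and 0.10 ± 0.09 at day 6 (adjusted p = 0.47).

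Of the 3 phosphofructokinases, which catalyse the main controlled step of glycolysis, the liver form passed at day 4 and between days in both lines. Pfkl was 1345, 1351 and 1348 in HM1 and 721, 790 and 892 in CAG150 at day 4 (-0.74 ± 0.14, 1.68-fold lower, adjusted p = 0.0041). By day 6 it was 578, 489 and 666 in HM1 and 398, 496 and 599 in CAG150, and the groups overlapped (-0.22 ± 0.14, adjusted p = 0.32). It fell 2.31-fold between days in HM1 (-1.21 ± 0.14, adjusted p = 3.3e-05) and 1.61-fold in CAG150 (-0.68 ± 0.14, adjusted p = 0.0019). Its interaction did not pass (0.53 ± 0.20, adjusted p = 0.21). Pfkp, the platelet form, was 76.6, 79.7 and 79.6 in HM1 and 55.9, 50.8 and 48.0 in CAG150 at day 4 (-0.49 ± 0.11, adjusted p = 0.01, lost with the mean of its probe sets). The difference at day 6 was -0.19 ± 0.11 (adjusted p = 0.24). Pfkm, the muscle form, went the other way. It was 344, 291 and 319 in HM1 and 378, 400 and 405 in CAG150 at day 6 (0.30 ± 0.09, adjusted p = 0.031). At day 4 its difference was 0.25 ± 0.09 (adjusted p = 0.074). The day 6 call of Pfkm was lost with median centring, without the filter on dim signals and when only the arrays compared were fitted. It was also lost without HM1 day 6 replicates 2 or 3 or CAG150 day 6 replicates 2 or 3 (adjusted p up to 0.11).

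Aldolase splits the phosphorylated hexose. Aldoa, its main form outside liver and brain, was 4544, 5021 and 4378 in HM1 and 2184, 2468 and 2607 in CAG150 at day 4, and 2411, 2586 and 2662 in HM1 and 1496, 1583 and 1779 in CAG150 at day 6. Within each day every CAG150 array was below every HM1 array. The difference between lines was -0.94 ± 0.10 at day 4 (1.92-fold, adjusted p = 4.1e-05), the smallest p of the 34 genes in that comparison, and -0.65 ± 0.10 at day 6 (1.57-fold, adjusted p = 0.00049). It fell between days by 1.81-fold in HM1 (-0.86 ± 0.10, adjusted p = 2.3e-05) and 1.49-fold in CAG150 (-0.57 ± 0.10, adjusted p = 0.00044). Aldoc, the brain form, did not pass between lines (-0.21 ± 0.15 at day 4 and -0.18 ± 0.15 at day 6), but fell between days from 105 ± 7.57 to 42.7 ± 5.52 (SD, n = 3) in HM1 (-1.04 ± 0.15, adjusted p = 0.00019) and from 89.3 ± 20.7 to 36.0 ± 8.43 in CAG150 (-1.01 ± 0.15, adjusted p = 0.00017, lost with the mean of its probe sets).

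The enzymes of later steps, Tpi1, Pgk1, Pgam1 and Pkm, were all lower in CAG150 at day 4. Tpi1, which interconverts the triose phosphates, was 3913, 4629 and 3587 in HM1 and 2160, 2522 and 2616 in CAG150 (-0.73 ± 0.12, 1.65-fold, adjusted p = 0.0015). Pgk1, which makes the first ATP of the pathway, was 6152, 6123 and 5271 in HM1 and 3780, 4029 and 4174 in CAG150 (-0.55 ± 0.08, 1.46-fold, adjusted p = 0.00085). Pgam1, a phosphoglycerate mutase, was 4569, 4848 and 4066 in HM1 and 3125, 3171 and 3537 in CAG150 (-0.45 ± 0.09, 1.37-fold, adjusted p = 0.0055). For all of these the groups did not overlap. Pkm, pyruvate kinase, was 5437, 5172 and 4927 in HM1 and 3396, 3678 and 3879 in CAG150 (-0.50 ± 0.10, 1.42-fold, adjusted p = 0.004), again without overlap.

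At day 6 fewer of these enzymes passed between the lines, although none of the 4 passed in the interaction (adjusted p from 0.17 to 0.86). Pgam1 was still lower in CAG150 (-0.38 ± 0.09, adjusted p = 0.01), and so was Pgk1 (-0.29 ± 0.08, adjusted p = 0.028), whose call was lost without any 1 of the 6 arrays of day 6 (adjusted p up to 0.09). The Pgk1 call was also lost with quantile normalization and without the filter on dim signals. Tpi1 (-0.24 ± 0.12, adjusted p = 0.19) and Pkm (-0.26 ± 0.10, adjusted p = 0.08) did not pass, and the groups overlapped for both. In HM1 all 4 genes fell between days, by 1.81-fold for Tpi1, 1.34-fold for Pgk1, 1.49-fold for Pgam1 and 1.29-fold for Pkm. In CAG150 Pgam1 fell 1.42-fold and Tpi1 1.29-fold. The call of Tpi1 (-0.37 ± 0.12, adjusted p = 0.027) was lost without CAG150 day 4 replicates 2 or 3 or CAG150 day 6 replicates 1 or 2 (adjusted p up to 0.1). Pgk1 (-0.16 ± 0.08, adjusted p = 0.14) and Pkm (-0.12 ± 0.10, adjusted p = 0.34) did not pass in CAG150, though Pgk1 did with median centring or the mean of probe sets.

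Gapdh, which oxidises glyceraldehyde phosphate and is often used as a reference gene, did not pass in any comparison. Its brightest control probe set read 13740, 12260 and 10670 in HM1 and 10730, 11760 and 10300 in CAG150 at day 4, and 11710, 11090 and 10940 in HM1 and 8694, 11760 and 8713 in CAG150 at day 6. The differences between lines were -0.16 ± 0.13 (adjusted p = 0.45) and -0.22 ± 0.13 (adjusted p = 0.24), with overlapping groups. The ratio of its 3′ to its 5′ control probe set, a measure of RNA integrity, lay between 0.744 and 0.839 on all 12 arrays. It was 0.798 to 0.839 in CAG150 and 0.816 to 0.837 in HM1 at day 4, and 0.744 to 0.801 in CAG150 and 0.761 to 0.779 in HM1 at day 6. The lines overlapped at each day. The days overlapped in CAG150 but not in HM1, where the ratio was lower at day 6, and its part in the day differences was not tested.

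The enolases with a probe set of their own were the tissue-restricted forms. Eno3, the muscle form, was 115, 130 and 158 in HM1 and 68.9, 77.5 and 76.3 in CAG150 at day 6 (-0.73 ± 0.10, 1.66-fold, adjusted p = 0.00035), after a difference of -0.27 ± 0.10 at day 4 (adjusted p = 0.099). It fell between days in HM1 (1.5-fold, adjusted p = 0.00075) and in CAG150 (2.06-fold, adjusted p = 5.9e-06). Its interaction did not pass (-0.455 ± 0.148, adjusted p = 0.13). Eno2, the neuronal form, was dim on all arrays. It was 12.1, 14.0 and 11.7 in HM1 and 27.5, 24.5 and 36.1 in CAG150 at day 4, the only gene of the 34 that passed as higher at that day (0.66 ± 0.11, adjusted p = 0.001). At day 6 it was 13.8, 19.1 and 13.7 in HM1 and 13.8, 15.9 and 14.7 in CAG150 (-0.03 ± 0.11, adjusted p = 0.88), so it fell between days in CAG150 (-0.55 ± 0.11, adjusted p = 0.00094). With pseudocounts of 1 and 64 its day 4 difference was 1.15 and 0.28.

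**Figure D2:**
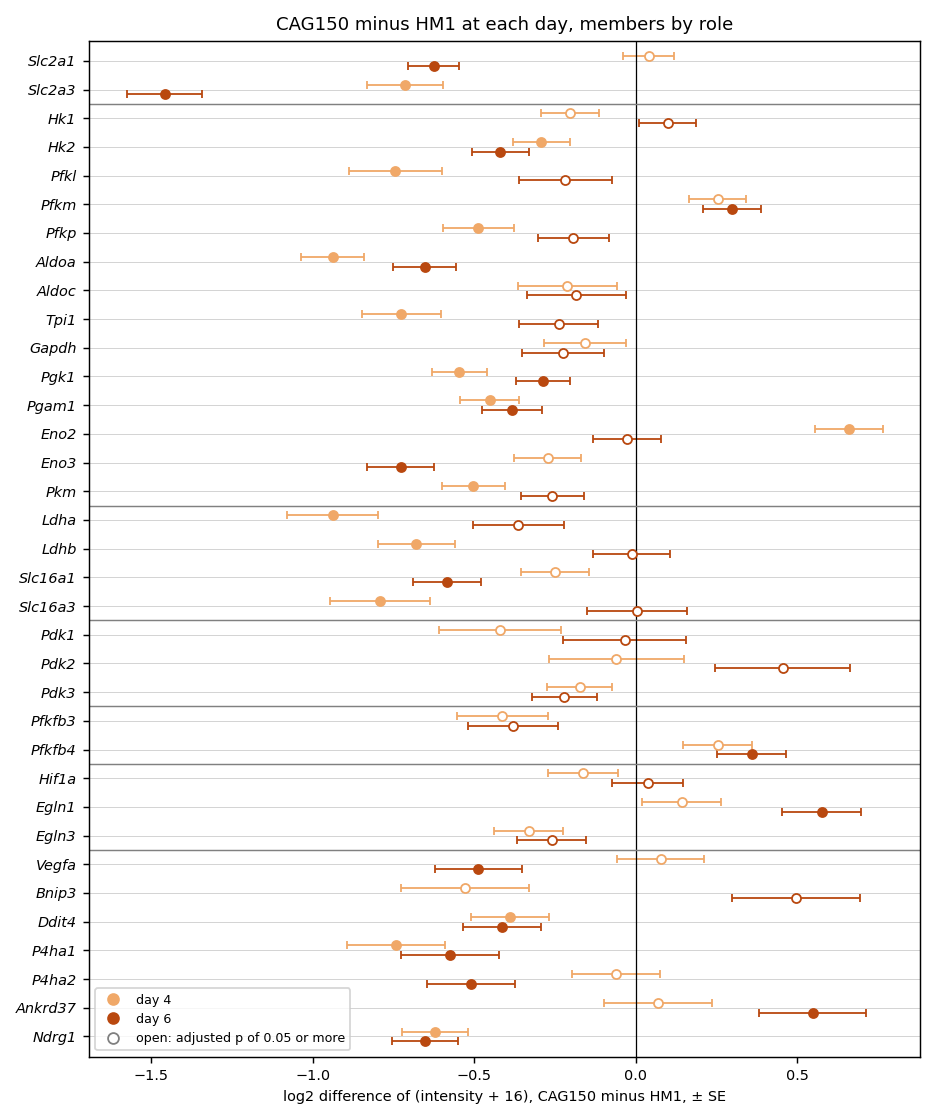
Log2 differences of (intensity + 16), CAG150 minus HM1, with SE from limma (3 arrays per group), for 35 genes by role at day 4 (light) and day 6 (dark). Filled points passed at an adjusted p under 0.05. Most points lie left of 0, Slc2a3 at day 6 (-1.46) lies farthest left, and Egln1, Ankrd37, Pfkfb4 and Pfkm passed on the right at day 6, although the last 3 did not pass with median centring.

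Lactate genes showed the isoform that favours lactate production falling and the other rising over time. Ldha, the lactate dehydrogenase subunit typical of glycolytic cells, was 6432, 7541 and 5789 in HM1 and 2934, 3412 and 3957 in CAG150 at day 4 (-0.94 ± 0.14, 1.92-fold lower, adjusted p = 0.00071). At day 6 it was 2939, 3473 and 3225 in HM1 and 2568, 2110 and 2835 in CAG150. All CAG150 arrays were still below those of HM1, but the difference did not pass (-0.36 ± 0.14, adjusted p = 0.087). Ldha fell 2.04-fold between days in HM1 (-1.03 ± 0.14, adjusted p = 1e-04) and 1.37-fold in CAG150 (-0.45 ± 0.14, adjusted p = 0.02), the latter lost without CAG150 day 4 replicate 3 or CAG150 day 6 replicate 2 (adjusted p up to 0.086).

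Ldhb, the subunit typical of oxidative tissues, was 489, 610 and 474 in HM1 and 314, 370 and 280 in CAG150 at day 4, and 672, 760 and 718 in HM1 and 740, 658.5 and 734 in CAG150 at day 6. CAG150 started lower (-0.68 ± 0.12, 1.60-fold, adjusted p = 0.002) and overlapped with HM1 by day 6 (-0.01 ± 0.12, adjusted p = 0.96). It rose between days 1.36-fold in HM1 (0.45 ± 0.12, adjusted p = 0.01, lost with median centring) and 2.17-fold in CAG150 (1.11 ± 0.12, adjusted p = 1e-05), where every array of day 6 lay above every array of day 4. It was the only gene of the 34 that passed as a rise between days in both lines in the main fit. The HM1 differences of Hk1 and Egln1 were also positive, without passing there. With the mean of probe sets both passed in HM1 and in CAG150, so that Ldhb was not the only such gene.

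The monocarboxylate transporters that export lactate fell as well. Slc16a3, the hypoxia-inducible exporter, was 156, 170 and 189 in HM1 and 86.6, 83.3 and 108 in CAG150 at day 4 (-0.79 ± 0.15, 1.73-fold lower, adjusted p = 0.0043). At day 6 the lines overlapped, with 47.1, 38.2 and 35.0 in HM1 and 28.2, 41.0 and 53.9 in CAG150 (0.00 ± 0.15, adjusted p = 0.99). The fall between days was 3.35-fold in HM1 (-1.74 ± 0.15, adjusted p = 2.8e-06), the largest of the 34 genes in that line except with a pseudocount of 64 (-1.18, against -1.52 for Slc2a3), and 1.93-fold in CAG150 (-0.95 ± 0.15, adjusted p = 0.00031). Slc16a1, the widespread transporter, was 1864, 1861 and 1902 in HM1 and 1787, 1553 and 1411 in CAG150 at day 4 (-0.25 ± 0.10, adjusted p = 0.13). By day 6 it was 998, 958.5 and 792.5 in HM1 and 604, 623 and 582 in CAG150, without overlap (-0.58 ± 0.10, 1.5-fold lower, adjusted p = 0.0018). This call was lost with the mean of the gene's probe sets, the other of which is below the filter on dim signals. It fell 2.04-fold between days in HM1 and 2.57-fold in CAG150.

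**Figure D3:**
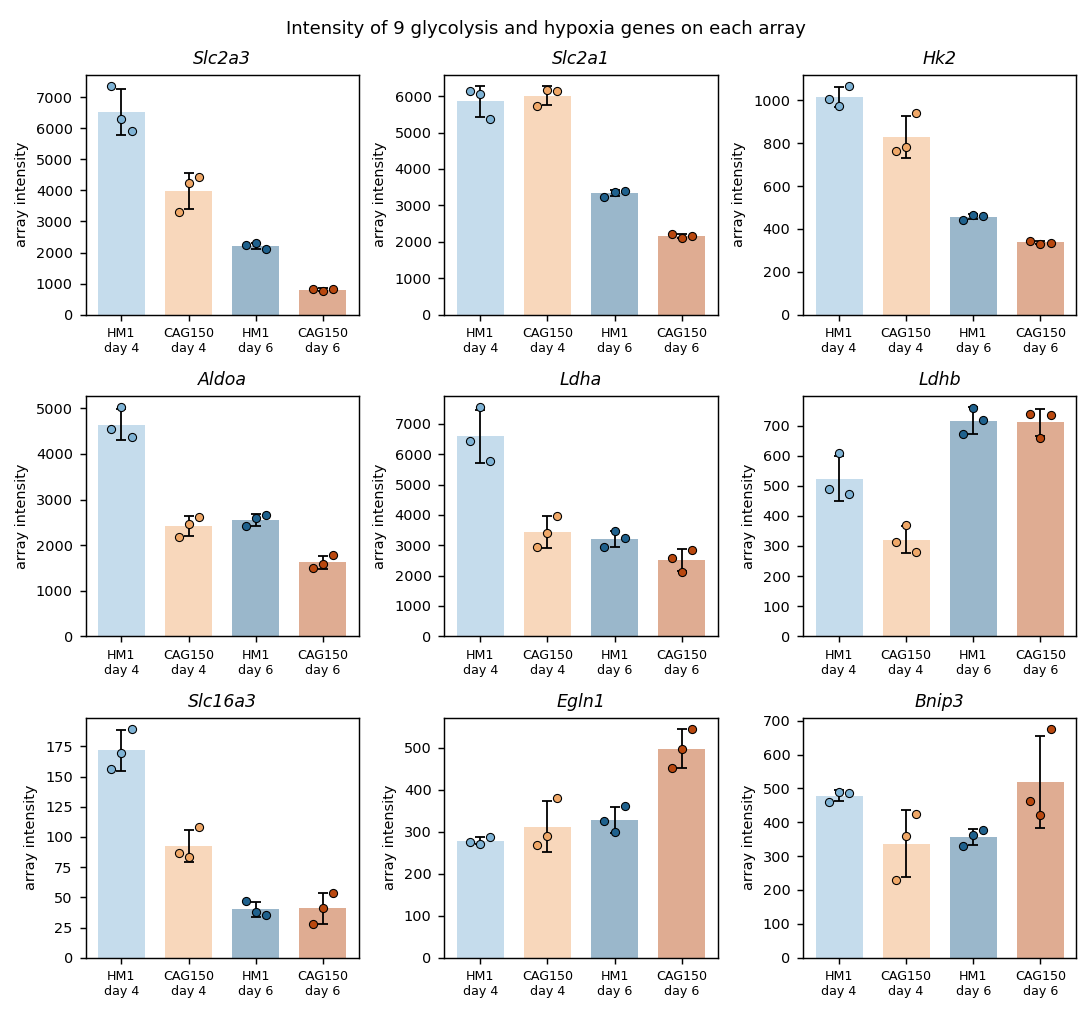
Array intensities on a linear axis from 0 for 9 genes in the 4 groups. Points are the 3 arrays of a group, bars their mean and error bars the SD. Slc2a3 steps down through the groups with no overlap, Slc2a1 differs between lines at day 6 and not at day 4, and Ldhb and Egln1 are higher at day 6 than at day 4 in CAG150.

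Pyruvate dehydrogenase kinases, which keep pyruvate out of the mitochondria, did not pass between lines at either day in the main fit of limma, for any of Pdk1, Pdk2 and Pdk3. At an unadjusted p under 0.05, 1 was lower at day 4 (Pdk1) and 1 at day 6 (Pdk3). Pdk1, the hypoxia-inducible kinase, was 244, 232 and 237 in HM1 and 143, 169 and 214 in CAG150 at day 4 (-0.42 ± 0.19, adjusted p = 0.16). It fell between days in HM1 to 137, 157 and 134 (-0.68 ± 0.19, adjusted p = 0.014). CAG150 at day 6 had a wide spread of 133, 98.9 and 201 (-0.29 ± 0.19 between days, adjusted p = 0.24). Pdk3 fell between days in HM1 (-0.29 ± 0.10, adjusted p = 0.036) and CAG150 (-0.34 ± 0.10, adjusted p = 0.015). The HM1 call was lost without HM1 day 4 replicates 2 or 3 or HM1 day 6 replicates 1 or 3 (adjusted p up to 0.14), and the CAG150 call without CAG150 day 4 replicate 3 (adjusted p = 0.054). The HM1 call was also lost without the filter on dim signals and when only the arrays compared were fitted. Pdk2 was dim, at 25.5 to 43.7 in group means, and did not pass between days either in the main fit. In CAG150 its rise between days (0.53 ± 0.21, adjusted p = 0.059) passed with a pseudocount of 64, a replicate block or a trend in the prior. It also passed when only the arrays compared were fitted, and without HM1 day 6 replicates 1 or 3. Without HM1 day 6 replicate 3 Pdk2 passed between lines at day 6 too.

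Of the bifunctional enzymes that tune phosphofructokinase, Pfkfb4 was higher in CAG150 at day 6, with 77.0, 75.1 and 80.8 in HM1 and 100.6, 109 and 103 in CAG150 (0.36 ± 0.11, adjusted p = 0.03). All CAG150 arrays were above those of HM1, but the call was lost with median centring or quantile normalization and without any 1 of the 6 arrays of day 6 (adjusted p up to 0.086). It was also lost without the filter on dim signals. Pfkfb3 pointed the other way at both days without passing (-0.41 ± 0.14, adjusted p = 0.066, and -0.38 ± 0.14, adjusted p = 0.073), although every CAG150 array was below every HM1 array.

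Hif1a mRNA itself did not pass in any comparison. Its intensities were 2494, 2089 and 2506 in HM1 and 2050, 1907 and 2375 in CAG150 at day 4, and 2250, 2310 and 2279 in HM1 and 2620, 2139 and 2283 in CAG150 at day 6. The groups overlapped in all comparisons of lines and days, with log2 differences from -0.16 ± 0.11 (lines at day 4, adjusted p = 0.35) to 0.15 ± 0.11 (days in CAG150, adjusted p = 0.28). Egln1, the main oxygen sensor that marks Hif1a for destruction, was 276, 271 and 288 in HM1 and 267, 289 and 380 in CAG150 at day 4 (0.14 ± 0.12, adjusted p = 0.48). At day 6 it was 325, 299 and 361 in HM1 and 452, 497 and 544 in CAG150, without overlap (0.58 ± 0.12, 1.49-fold higher, adjusted p = 0.0054). It rose between days in CAG150 (0.66 ± 0.12, 1.58-fold, adjusted p = 0.00085) but not past the threshold in HM1 (0.22 ± 0.12, adjusted p = 0.17). With the mean of its probe sets it passed in HM1 too. The interaction did not pass (0.435 ± 0.174, adjusted p = 0.23). In the fit of all probe sets this probe set passed at day 6 (adjusted p = 0.021) and the gene's dimmer one did not (0.28, adjusted p = 0.15). Egln3, a hydroxylase that is itself hypoxia-inducible, was lower in CAG150 at day 4 on every array, at 40.1, 40.2 and 36.3 against 50.8, 56.5 and 51.9, without passing (-0.33 ± 0.11, adjusted p = 0.054).

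Among the other hypoxia response genes, P4ha1, Ndrg1 and Ddit4 were lower in CAG150 at both days. P4ha1, a collagen prolyl hydroxylase subunit, was 270, 204 and 211 in HM1 and 105, 134 and 152 in CAG150 at day 4 (-0.74 ± 0.15, 1.67-fold, adjusted p = 0.0058). At day 6 it was 184.5, 219 and 222 in HM1 and 114, 129.5 and 163 in CAG150 (-0.58 ± 0.15, adjusted p = 0.017). The groups did not overlap at either day. The day 6 call was lost without HM1 day 6 replicates 2 or 3 or CAG150 day 6 replicates 1 or 2 (adjusted p up to 0.073).

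Ndrg1, a stress-response gene strongly induced by hypoxia in many cells, was 26.2, 33.5 and 29.5 in HM1 and 15.9, 12.6 and 12.5 in CAG150 at day 4 (-0.62 ± 0.10, adjusted p = 0.0015). At day 6 it was 42.2, 30.2 and 38.3 against 17.3, 19.7 and 15.6 (-0.65 ± 0.10, adjusted p = 0.00074). Although dim, it was lower on all CAG150 arrays, and with pseudocounts of 1 and 64 the day 4 difference was -1.06 and -0.27. Ddit4, an inhibitor of mTORC1 signalling, was 1605, 1836 and 1781 in HM1 and 1239, 1296 and 1444 in CAG150 at day 4 (-0.39 ± 0.12, adjusted p = 0.047). It read 1076, 934.6 and 1181 against 743, 709 and 939 at day 6 (-0.41 ± 0.12, adjusted p = 0.029), where the groups overlapped. The first call was lost without any 1 of 8 arrays (all 6 of day 4, HM1 day 6 replicate 1 and CAG150 day 6 replicate 1), with adjusted p up to 0.14. It was also lost with quantile normalization, without the filter on dim signals, with a pseudocount of 1 and without chromosomes 8, 11 and Y. The day 6 call was lost without HM1 day 6 replicates 1 or 3 or CAG150 day 6 replicates 1 or 2, with adjusted p up to 0.11. It was also lost without the filter and when only the arrays compared were fitted. Ddit4 fell 1.63-fold between days in HM1 and 1.66-fold in CAG150.

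Vegfa and P4ha2 differed between lines at day 6, after differences at day 4 of 0.08 ± 0.14 (adjusted p = 0.75) and -0.06 ± 0.14 (adjusted p = 0.81). Vegfa, the angiogenic growth factor and classical hypoxia target, was 103, 90.7 and 111 in HM1 and 66.2, 59.5 and 78.2 in CAG150 at day 6 (-0.49 ± 0.14, 1.40-fold, adjusted p = 0.022). P4ha2, the paralog of P4ha1, was 82.7, 82.8 and 96.9 in HM1 and 59.7, 42.6 and 70.0 in CAG150 (-0.51 ± 0.14, 1.42-fold, adjusted p = 0.018). Neither pair of groups overlapped. Both also fell between days in CAG150 (-0.51 ± 0.14, adjusted p = 0.0082 for Vegfa, and -0.74 ± 0.14, adjusted p = 0.00075 for P4ha2). In HM1 neither passed between days (0.05 ± 0.14, adjusted p = 0.79 for Vegfa, and -0.29 ± 0.14, adjusted p = 0.11 for P4ha2). Neither passed in the interaction (adjusted p = 0.15 and 0.26). Without HM1 day 6 replicate 3 or CAG150 day 6 replicate 2 both calls between lines at day 6 were lost, and that of Vegfa also without HM1 day 6 replicate 1 or CAG150 day 6 replicate 1 (adjusted p up to 0.08 for Vegfa and 0.07 for P4ha2).

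Ankrd37 and Bnip3 each passed only once, as higher. Ankrd37, a hypoxia-induced ankyrin repeat protein, was 54.4, 44.9 and 26.1 in HM1 and 62.1, 56.7 and 83.2 in CAG150 at day 6 (0.55 ± 0.17, adjusted p = 0.035). Its call was lost with median centring or quantile normalization, without the filter on dim signals, with a pseudocount of 1 and with a replicate block. It was also lost when only the arrays compared were fitted. Without HM1 day 6 replicates 2 or 3 or CAG150 day 6 replicates 1 or 3 it was lost too (adjusted p up to 0.14). Bnip3, a mitophagy receptor, was 460, 491 and 485 in HM1 and 228, 359 and 425 in CAG150 at day 4, and 330, 362.5 and 377 in HM1 and 463, 420 and 675 in CAG150 at day 6. It was thus lower in CAG150 on every array of day 4 (-0.53 ± 0.20, adjusted p = 0.095) and higher on every array of day 6 (0.50 ± 0.20, adjusted p = 0.098), with neither difference past the threshold. In HM1 every array of day 6 was below every array of day 4, without passing (-0.41 ± 0.20, adjusted p = 0.12). It rose between days in CAG150 (0.61 ± 0.20, adjusted p = 0.024), but the groups overlapped and the call was lost with median centring and without CAG150 day 4 replicate 1 or CAG150 day 6 replicate 3 (adjusted p up to 0.11). The call was also lost when only the arrays compared were fitted.

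**Figure D4:**
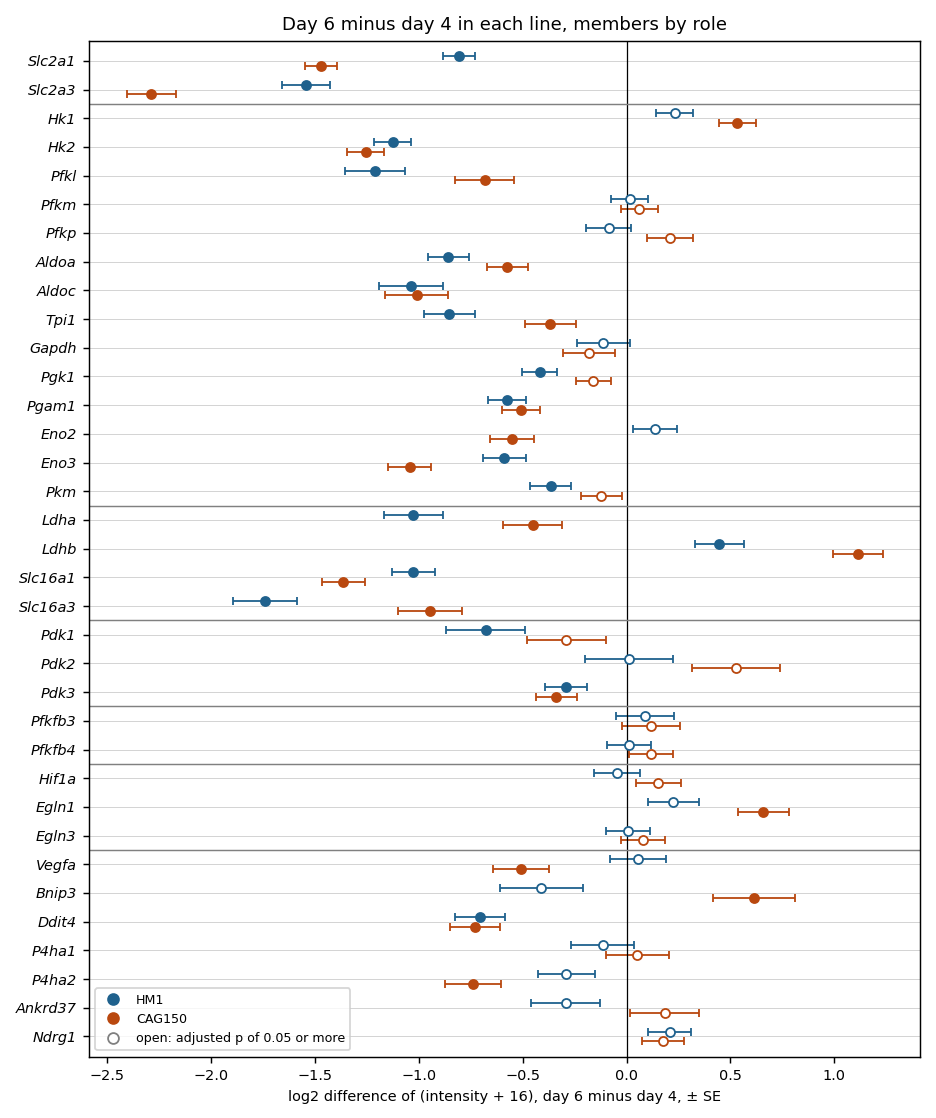
Log2 differences of (intensity + 16), day 6 minus day 4, with SE from limma (3 arrays per group), for 35 genes by role in HM1 (blue) and CAG150 (orange-brown). Filled points passed at an adjusted p under 0.05. Slc2a3 in CAG150 (-2.29) lies farthest left and Ldhb in CAG150 (1.11) farthest right.

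The 8 genes lower in CAG150 at both days were Aldoa, Ddit4, Hk2, Ndrg1, P4ha1, Pgam1, Pgk1 and Slc2a3. They are 8 of the 15 lower at day 4 and 8 of the 13 lower at day 6, from arrays that the comparisons do not share. Over all genes tested, 569 were lower at both days, 58.5% of those lower at day 4 and 41.2% of those lower at day 6. Between days, 14 genes fell in both lines, of 17 in each: Aldoa, Aldoc, Ddit4, Eno3, Hk2, Ldha, Pdk3, Pfkl, Pgam1, Slc16a1, Slc16a3, Slc2a1, Slc2a3 and Tpi1. Over all genes tested, 1698 fell in both lines, 74.7% of those that fell in HM1 and 63.1% of those that fell in CAG150. Each comparison of lines shares arrays with each comparison of days, so the fall over time and the lower level in CAG150 are not independent of each other.

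Whether the lines changed differently over time was tested with the interaction, the day difference in CAG150 minus that in HM1. Of the 34 genes 4 passed (1 higher and 3 lower), where 3.61% of all genes tested did (1.58% higher and 2.03% lower). Slc2a1 (-0.66 ± 0.11, adjusted p = 0.006) and Slc2a3 (-0.75 ± 0.17, adjusted p = 0.028) fell more in CAG150, and Eno2 (-0.69 ± 0.15, adjusted p = 0.024) fell in CAG150 from its higher level at day 4. Ldhb rose more in CAG150 (0.67 ± 0.17, adjusted p = 0.048). The call of Slc2a1 was kept when any 1 array was left out. That of Slc2a3 was lost without any 1 of 8 arrays (adjusted p up to 0.07), that of Eno2 without any 1 of 5 (up to 0.058) and that of Ldhb without any 1 of 11 (up to 0.11). The calls of Slc2a3 and Ldhb were also lost without the filter on dim signals and with a replicate block. With the mean of probe sets that of Slc2a3 was lost, and with median centring or a pseudocount of 1 that of Ldhb. For Eno2 the call was also lost with a trend in the prior (adjusted p = 0.11) and with a pseudocount of 64 (-0.30, adjusted p = 0.11), while a pseudocount of 1 gave -1.20 (adjusted p = 0.022). The count was 1 without HM1 day 4 replicate 3, HM1 day 6 replicate 2 or CAG150 day 6 replicate 3. Over all genes tested, 443 passed with all arrays, and 338, 345 and 269 in these fits. It was 2 without HM1 day 4 replicates 1 or 2, HM1 day 6 replicate 1 or CAG150 day 6 replicate 2, where 364, 364, 313 and 360 of all genes passed. With median centring 0 genes were higher and 3 lower (349 passed of all genes). A pseudocount of 64, a 60th percentile filter and a trend in the prior each gave 3 higher and 2 lower, with Bnip3 and Slc16a3 added as higher. Over all genes, 574, 467 and 514 passed in these fits. Slc16a3 (0.80 ± 0.22, adjusted p = 0.068) and Bnip3 (1.02 ± 0.28, adjusted p = 0.069) came next and did not pass. Nor did any other of the 34 genes, including others that passed at only 1 day or in only 1 line.

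Genes with several probe sets gave mostly like answers. In the comparison of lines at day 4, 17 genes had more than 1 probe set above the filter on dim signals, and 6 of them had probe sets of differing sign, but in a fit of all probe sets 0 had probe sets that passed in opposite directions, in any of the 5 comparisons. All 4 probe sets of Slc2a3 were lower in CAG150 at both days (-0.56 to -0.95 at day 4, -0.90 to -1.55 at day 6), and all 4 of Ldhb rose between days in CAG150 (1.01 to 1.32). For Aldoa the dimmest of 5 probe sets gave -0.12 between lines at day 4 while the others gave -0.89 to -1.04. The dimmest of 3 probe sets of Pgk1 gave -0.87 at day 6 (adjusted p = 0.0034 in the fit of all probe sets) against -0.29 for the brightest (adjusted p = 0.1 there). Several of the probe sets used, among them those of Aldoa, Tpi1, Slc2a3 and Ndrg1, are of types (_x_at, _s_at) that can also bind related transcripts, such as pseudogene copies, so part of their signal may come from those.

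The core of the hypoxia response element, to which Hif1a binds, was looked for in the 250 bases before the RefSeq start of each gene (GRCm38.p6), as ACGTG and as GCGTG on both strands. An ACGTG read on both strands at the same place is the palindrome CACGTG, which other factors bind too. The table held 50 such windows for 35 of the 38 genes, not counting Slc2a3, Ndrg1 and Bnip3l, and 36 of the 45 windows of genes in the fit (80%) held at least 1 of these motifs, against 55.8% of the 12779 windows of all genes tested. ACGTG alone was in 55.6% of these 45 windows against 21.4%, and GCGTG in 53.3% against 44.8%. Their median GC content was 62.4% against 60%. The 38 genes were chosen by name, in part as genes known to respond to Hif1a, so these shares partly reflect that choice. They come from the genome sequence and not from these samples. A gene with several windows was counted once for each. A match describes letters in a window and does not show that Hif1a binds there in these cells. The windows below are of the 4 genes with the smallest p between lines among those that passed and held a motif, shown so that the motifs can be read beside the values above, each 5′ to 3′ in the gene's direction with the motifs (or their reverse complements CACGT and CACGC) in capitals. For a gene with several windows, one with the most motifs is shown. They lie at chr7:126799179-126799428 on the minus strand (Aldoa, 1 of its 3 windows, another of which held neither motif), and on the plus strand at chr4:119108495-119108744 (Slc2a1), chr11:70656926-70657175 (Eno3) and chr7:46845554-46845803 (Ldha, 1 of its 2 windows, where the other held a single GCGTG).
Aldoa: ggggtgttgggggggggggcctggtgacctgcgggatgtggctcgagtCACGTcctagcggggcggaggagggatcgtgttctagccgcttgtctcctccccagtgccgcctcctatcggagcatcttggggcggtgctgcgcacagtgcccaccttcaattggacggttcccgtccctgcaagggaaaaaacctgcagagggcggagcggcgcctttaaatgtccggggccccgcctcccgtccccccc
Slc2a1: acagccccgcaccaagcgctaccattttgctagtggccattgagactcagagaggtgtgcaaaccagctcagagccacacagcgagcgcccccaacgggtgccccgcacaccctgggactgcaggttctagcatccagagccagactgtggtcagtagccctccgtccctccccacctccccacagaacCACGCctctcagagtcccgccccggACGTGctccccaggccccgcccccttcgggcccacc
Eno3: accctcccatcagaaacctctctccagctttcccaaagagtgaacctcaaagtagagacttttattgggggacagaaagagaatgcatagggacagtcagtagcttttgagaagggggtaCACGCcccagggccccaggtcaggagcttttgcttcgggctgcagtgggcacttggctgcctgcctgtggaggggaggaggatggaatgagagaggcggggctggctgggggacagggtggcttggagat
Ldha: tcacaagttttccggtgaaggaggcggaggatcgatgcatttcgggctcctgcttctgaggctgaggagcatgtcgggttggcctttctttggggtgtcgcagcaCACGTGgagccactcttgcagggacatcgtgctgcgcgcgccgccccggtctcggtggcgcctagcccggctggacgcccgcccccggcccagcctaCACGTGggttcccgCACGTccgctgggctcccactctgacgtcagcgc
Ldha held 5 matches to ACGTG, 4 of them from 2 CACGTG palindromes that begin 145 and 48 bases before the start, and Slc2a1 held its motifs 61 and 36 bases before the start. Eno3, the muscle enolase, held a single GCGTG and Aldoa a single ACGTG.

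Related genes outside the 38 were counted in the same way. Of 18 other genes known to respond to hypoxia, 5 were lower and 0 higher in CAG150 at day 4 (median -0.17, with 1 higher at an unadjusted p under 0.05), and 3 lower and 2 higher at day 6 (median -0.17), against the backgrounds given above. Of 12 regulators of the hypoxia pathway such as Vhl and Arnt, 2 were lower and 0 higher at day 4 (0 higher at an unadjusted p under 0.05), and 1 lower and 1 higher at day 6. Of 12 further glycolysis and lactate genes, mostly isoforms of other tissues, 2 were lower and 2 higher at day 4 and 1 lower and 1 higher at day 6. The 11 pentose phosphate and serine synthesis genes had 1 lower and 1 higher at day 4 and 3 lower and 0 higher at day 6 (0 higher at an unadjusted p under 0.05). Of 9 genes of pyruvate entry into mitochondria, such as pyruvate dehydrogenase subunits, 0 were lower (also at an unadjusted p under 0.05) and 1 higher at day 4, and 0 passed at day 6 (0 lower and 3 higher at an unadjusted p under 0.05). Between days these lists had 6 lower and 3 higher in HM1 and 5 lower and 4 higher in CAG150 for the other hypoxia genes, 3 and 3 and then 3 and 4 for the regulators, and 2 and 3 in each line for the further glycolysis genes. For the pentose phosphate and serine genes 5 were lower and 0 higher in each line (0 higher also at an unadjusted p under 0.05), and for pyruvate entry 2 were lower and 1 higher in each line. Over all genes tested, 18.5% were lower and 20.4% higher in HM1, and 21.9% lower and 22.5% higher in CAG150. Some lists were near these shares, such as the further glycolysis genes with 16.7% lower and 25% higher in each line.

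Chromosomes 8 and 11 as wholes were shifted upward in CAG150, and 7 of the 34 genes lie there. Over all genes tested on these chromosomes the median difference between lines was 0.18 at day 4 and 0.23 at day 6, against -0.02 and -0.03 for all others. The 7 genes had medians of -0.06 and 0.00, and the 27 on other chromosomes -0.42 and -0.26. Of the 4 genes that were higher at day 6, Egln1 and Ankrd37 are on chromosome 8. Among genes of chromosome 11, Eno3 and P4ha2 were lower at day 6 and Slc16a3 was lower at day 4. The part of this shift in the values of Egln1 and Ankrd37 was not tested. Without chromosomes 8, 11 and Y in the fit, 13 genes were lower and 1 higher at day 4, and 11 lower and 2 higher at day 6. Over all genes in that fit, 1446 and 1874 passed.

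The cultures differed in cell type markers along with these genes. Over all genes tested, 7.92% were lower and 7.87% higher in CAG150 at day 4, and 11.2% and 10.1% at day 6. Of 10 pluripotent cell markers 7 were lower in CAG150 at each day, and their summed intensity per array was 3082 to 3247 in HM1 and 1460 to 1586 in CAG150 at day 4, and 3088 to 3376 and 1422 to 1536 at day 6. Pou5f1, which maintains pluripotency, was 341 ± 124 (SD, n = 3) in HM1 and 105 ± 21.0 in CAG150 at day 4. Between days in HM1 the sum of the pluripotent cell markers overlapped, with 3 of the 10 markers higher and 2 lower, where 20.4% and 18.5% of all genes tested were. Of 12 neuron markers, all above the filter, 6 were higher and 1 lower in CAG150 at day 4 and 9 higher at day 6. Their sums were 4234 to 4506 in HM1 and 3298 to 3705 in CAG150 at day 4, and 14180 to 16170 and 20150 to 21420 at day 6. Of 10 neural progenitor markers, all above the filter, 2 were higher at day 4, and 2 higher and 1 lower at day 6, with sums of 10260 to 12050 and 12200 to 12630 at day 4, and 22060 to 23950 and 23190 to 24420 at day 6. The defining markers of the labelled neural source were thus present, and those of neurons higher at day 6.

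Of 8 smooth muscle and fibroblast markers tested, 5 were lower in CAG150 at each day, where 7.92% and 11.2% of all genes tested were. All 10 on the array summed to 3305 to 3817 in HM1 and 521 to 602 in CAG150 at day 4, and to 4854 to 5777 and 322 to 342 at day 6, with Pdgfrb and Des below the filter. Endoderm markers summed to 359 to 442 and 239 to 286 at day 4 and to 668 to 690.5 and 276 to 365 at day 6, with Sox7, Afp, Ttr and Amn of 10 below the filter. Of 8 glia and blood markers with a probe set 5 were below the filter (Gfap, S100b, Hba-a1, Ptprc and Pecam1), and their sums were 205 to 228, 210 to 224, 196 to 230.5 and 217.5 to 274 in HM1 and CAG150 at day 4 and HM1 and CAG150 at day 6. The part of these cell types in the differences of the glycolysis and hypoxia genes was not tested.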

How the data were processed

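Each of the 12 arrays was deposited as a table of intensity values per probe set on a linear scale. On HM1 day 4 replicate 1, the array for which it was computed, the mean after trimming 2% of probe sets at each end was 150. This looks like a scaling before deposit, with software not given in the sources used here. Array medians lay between 19.2 and 25.9. Probe sets were named from the platform annotation where they carried 1 symbol (34945 of 45101), and 64 control probe sets were left out. Each gene was represented by its brightest probe set, kept if above the 40th percentile (an intensity of 11.9), and log2(intensity + 16) was fitted with limma 3.58.1 in R 4.3.3 over all 12 arrays by group (8 residual and 4.46 prior degrees of freedom), with Benjamini-Hochberg adjustment over 12280 genes and no further normalization. The fit was tested on simulated data. Gapdh was tested in a fit that kept named control probe sets, an alternative chosen after seeing the data. Any of the 38 genes was eligible to be described by name, with full values for those with the smallest p and for paralogs, and other lists were given as counts. The members, lists and alternatives were chosen with earlier results of these data known. Alternatives covered normalization, filter, pseudocount, probe set rule, chromosomes, replicate block, prior and each array left out. No 2 arrays of a group were duplicates.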

Additional observations from a re-analysis of the deposited data

Results flagged for a closer look

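The 4 genes below stood out because their change from day 4 to day 6 differed between the lines by the interaction test of limma, adjusted over all genes tested. The values are the day difference of log2(intensity + 16) in CAG150 minus that in HM1. For Slc2a1 the interaction was -0.66 (adjusted p = 0.006), with a fall in both lines that was larger in CAG150. All 3 of its probe sets had a negative interaction (-0.48 to -0.66). For Eno2 it was -0.69 (adjusted p = 0.024), a gene near the background at an intensity of 11.7 to 36.1 on all arrays, whose call was lost with a pseudocount of 64 (-0.30, adjusted p = 0.11) and with a trend in the prior. For Slc2a3 it was -0.75 (adjusted p = 0.028), and its 4 probe sets all had a negative interaction. For Ldhb it was 0.67 (adjusted p = 0.048), with a rise in both lines that was larger in CAG150, and its 4 probe sets gave 0.65 to 0.78. Probe sets of a gene were read on the same arrays. In the fit of all probe sets, 66 probe sets of the genes described here were above the filter. Of these, 0 passed as higher in the interaction and 1 as lower. The calls of Eno2, Slc2a3 and Ldhb were each lost when some single arrays were left out. Smooth muscle markers also had negative interactions, with 4 of 8 lower and 0 higher (0 higher also at an unadjusted p under 0.05, limma). Over all genes tested, 2.03% were lower and 1.58% higher. The part of these markers in the values of the 4 genes was not tested.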

How the results depend on the processing

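None of the calls on the 34 genes changed direction under any alternative run. Calls were also gained. With a pseudocount of 64 or a trend in the prior, Bnip3, Ldha and Pkm passed between lines at day 6. Never lost were 13 of 16 calls between lines at day 4, 8 of 17 at day 6, 16 of 18 between days in HM1, 16 of 21 in CAG150 and 1 of 4 of the interaction. A gene absent from a fit was not counted as lost there, so these counts are upper limits. With a 60th percentile filter 31 of the 34 genes were in the fit, without Eno2, and 0 were higher at day 4. Without chromosomes 8, 11 and Y 27 were in the fit. With single arrays left out, the number of genes passed between lines at day 6 ranged from 10 to 18 and that of the interaction from 1 to 3, and the median between days in CAG150 from -0.41 to -0.23. Over all genes tested, the numbers that passed ranged from 1861 to 2649 and from 269 to 364 in these fits. Without a filter 2 genes passed in the interaction (0 higher and 2 lower), and 1 was higher and 11 lower at day 6. Over all genes in that fit, 295 and 2242 passed. A pseudocount of 64 gave medians of -0.27 between lines at day 4 and -0.23 between days in CAG150. The mean of probe sets gave -0.28 at day 4. Median centring gave -0.43 between days in HM1 and -0.41 in CAG150, and a 60th percentile filter -0.41 in HM1. The cause of these moves was not tested. With the replicate block 17, 17, 18, 22 and 3 genes passed, in the order of comparisons above, and in the interaction the calls of Slc2a3 (adjusted p = 0.055) and Ldhb (0.052) were lost and Bnip3 was gained. Over all genes tested, 1867, 2547, 4710, 5425 and 396 passed with the block, in the same order. Same-numbered samples did not deviate together (correlations -0.133 to 0.122 over 18 pairs, 2 over 0.1), so the numbers were not used as pairs. The interaction could not be fitted on only the arrays compared, since it uses all. Dim genes such as Eno2, Ndrg1 and Pdk2 are limited by their signal over background.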
